A study of Zea mays with 24 samples.

Results

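Lsi6 is a membrane channel gene of the aquaporin family, 1 of 1108 named genes on the maize array, and 1 of the 17621 gene probe sets carried it. The probe set was found by passing its Entrez gene identifier, 542497, to the gene table, which lists Lsi6, NIP2-3 and GRMZM2G081239 among the synonyms. The name was taken from that table, and which maize gene is most like rice Lsi6 was not tested. The gene was chosen by its measured signals in these same groups, which include its difference from control in Han21 moderate drought, so its levels and differences are described here without a test.

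Aquaporins are channels through which water and small uncharged solutes cross membranes. They fall into classes named after the membrane or protein they resemble: PIP for the plasma membrane, TIP for the tonoplast, SIP for small basic channels and NIP for the nodulin 26-like group. In rice, the NIP channel Lsi1 lets silicic acid into the root, the unrelated exporter Lsi2 passes it on towards the xylem, and Lsi6 takes it out of the xylem sap in the shoot, so that silica is laid down in leaf tissues.

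Shoots of seedlings at the three-leaf stage were profiled in the inbred lines Han21 and Ye478, each with 4 groups of seedlings: watered controls, seedlings in moderate drought, seedlings in severe drought and seedlings watered again afterwards. The labels give 3 biological replicates in each of the 8 groups, 24 arrays in all, and name no transgene, mutation or other agent. They call the tissue shoot, whereas the extraction text speaks of mesocotyls. They do not say how many seedlings stand behind an array, how long each treatment lasted, or whether the lines were grown together.

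Values are MAS5 signals, a linear intensity that the authors had scaled to a trimmed mean between 500.14 and 500.18 on all arrays. A probe set was kept for testing if it lay above the 40th percentile of its array, 72.55 to 106.8 signal units, on at least 3 arrays, which left 12111 probe sets. Of 13 listed leaf markers 8 had a probe set, and all of these were tested. Their summed signal in Han21 was 36099 to 48105 in controls, 33923 to 39649 in moderate drought, 26055 to 34923 in severe drought and 42250 to 56990 after re-watering. In Ye478 it was 34359 to 43895 in controls, 31108 to 37438 in moderate drought, 23324 to 28859 in severe drought and 43648 to 52405 after re-watering. Of 6 listed root markers only Lsi1 had a probe set, so root material could not be checked. Replicate 1 stood apart from replicates 2 and 3 in all 8 groups on the first principal component of the deviations from the group means.

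In Han21, Lsi6 was bright in the watered shoot, dim in drought and bright again after re-watering. Its signal was 1317, 887 and 1023 in replicates 1 to 3 of the control, 211, 126 and 147 in moderate drought, 156, 154 and 137 in severe drought and 1640, 2121 and 1211 after re-watering. Every drought array lay far below every control array, while the moderate and severe arrays overlapped each other and the re-watered arrays overlapped the controls. In whole shoots, fewer cells of a type and less RNA per cell cannot be told apart. On its array the probe set stood at the 82.41st to 87.21st percentile in the controls, at the 44.98th to 54.19th in moderate drought, at the 46.51st to 49.07th in severe drought and at the 86.37th to 92.67th after re-watering.

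In Ye478 the gene was dimmer throughout. The signal was 182, 182 and 349 in the control replicates, 117, 82.2 and 113 in moderate drought, 50.8, 54.8 and 70.1 in severe drought and 70.9, 85.8 and 140 after re-watering. The 3 control arrays lay above all moderate arrays, these above all severe arrays, and the re-watered arrays lay just above the severe ones and below the controls. Lsi6 was above the array's filter level on 19 of the 24 arrays. The exceptions were the 3 severe drought arrays of Ye478 and replicates 1 and 2 of re-watered Ye478, so the lowest Ye478 levels are close to the dim end of the array.

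**Figure D1:**
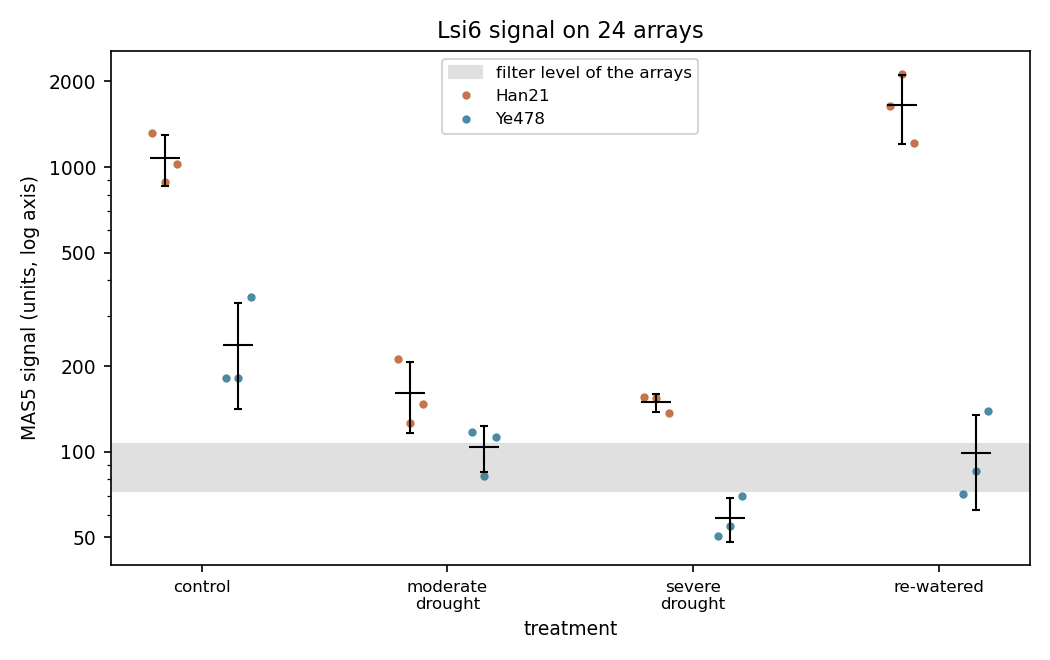
Lsi6 MAS5 signal (vertical log axis, signal units) by treatment, with 1 point per array, Han21 left of Ye478, and black bars for the group mean and SD (n = 3). The grey band spans the filter levels of the arrays, 72.55 to 106.8. Han21 re-watered arrays sit at 1211 to 2121 and Ye478 re-watered arrays at 70.9 to 140.

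Ordered by mean signal, re-watered Han21 came first at 1657 ± 455 and the Han21 control next at 1076 ± 220 (SD, n = 3 each), and their arrays overlapped. A wide gap followed, 2.21 on the log2 scale, before the Ye478 control at 237 ± 96.3. The Ye478 control overlapped Han21 in moderate drought, at 161 ± 44.7, which in turn overlapped Han21 in severe drought, at 149 ± 10.5. Ye478 in moderate drought, at 104 ± 19.1, lay below all of these without overlap but overlapped re-watered Ye478, at 98.7 ± 36.1. Ye478 in severe drought was last, at 58.6 ± 10.2, and overlapped no other group. The highest re-watered Ye478 array, at 140, reached into the range of both Han21 drought groups. Seedlings of Han21 in drought thus carried a signal in the range of, or just below, watered Ye478 seedlings. The SD between replicates, pooled over the 8 groups, was 0.36 on the log2 scale.

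In moderate drought the mean Lsi6 signal was 6.67-fold lower than in control in Han21 and 2.28-fold lower in Ye478. In a linear model of log2 signal over all 24 arrays, the difference from control was −2.72 ± 0.27 in Han21 and −1.10 ± 0.27 in Ye478 (log2, model SE). Of the 12111 tested probe sets, 1.05% had a lower value than Lsi6 in Han21 and 10.04% in Ye478. The gene was chosen in part on the Han21 value, so its rank there is no independent result.

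In severe drought Lsi6 was 7.22-fold below control in Han21 and 4.06-fold below control in Ye478. The log2 differences from control were −2.80 ± 0.27 in Han21 and −1.88 ± 0.27 in Ye478. The step from moderate to severe drought was −0.08 ± 0.27 in Han21, where the arrays overlapped and the sign turned when replicate 1 was left out (0.09). In Ye478 the same step was −0.78 ± 0.27, with no overlap. The 2 drought levels were thus apart in Ye478 and within the spread of the arrays in Han21.

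After re-watering Lsi6 stood higher in Han21 than in Ye478 by the widest margin of the 4 stages. In Han21 the signal was 11.1 times that of severe drought, a log2 difference of 3.40 ± 0.27, and 186 tested probe sets including Lsi6 had a difference as large or larger. In Ye478 it was 1.69 times that of severe drought, 0.67 ± 0.27 on the log2 scale. The Ye478 value was 0.40 without the brightest re-watered array, replicate 3, and 0.87 without replicate 1 of that group, and all 3 severe arrays behind it lay below the filter level. Against the watered control, re-watered Han21 differed by 0.60 ± 0.27 with overlapping arrays, a value of 0.28 without replicate 2 and at most 0.81 with other arrays left out, and re-watered Ye478 was 2.4-fold lower, by −1.21 ± 0.27, with no overlap. Only 3.35% of the tested probe sets stood lower than Lsi6 against control in re-watered Ye478.

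The return can be given as the part of the severe drought fall, on the log2 scale, that was regained. Lsi6 regained 122% in Han21 and 35.5% in Ye478. With arrays left out, an alternative chosen after seeing the data, the return was 109% to 129% in Han21 and 21.3% to 46.0% in Ye478. Lowest in Ye478 was the value without replicate 3 of its re-watered group. The values were set beside those of 1378 other probe sets that were called lower and at least 2-fold lower in severe drought in both lines. These had a median return of 90.8% in Han21 (quartiles 72.9 and 110%) and 83.9% in Ye478 (quartiles 67.4 and 99.5%). In Han21, 15.2% of them regained more than Lsi6, and in Ye478 7.18% regained less. The Han21 return exceeded the Ye478 return by 86.1 percentage points for Lsi6, against a median of 7.09 points, and 17 of the 1378 probe sets (1.23%) had a difference at least as large. Among aquaporin genes within the same limits, Lsi1 regained 123% in Han21 and 63.8% in Ye478, and TIP4-4 regained 117% and 82.9%. TIP2-1 regained 165% and 136%. The return was larger in Ye478 for NIP1-1 (71.2% and 83.4%), SIP1-2 (77.7% and 97.6%) and TIP2-2 (98.7% and 132%). All Han21 arrays of TIP4-4 and all Ye478 arrays of TIP2-2 lay below the filter level, so those returns compare dim values. In the other line the filter kept each of these 2 genes only through control and re-watered arrays.

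**Figure D2:**
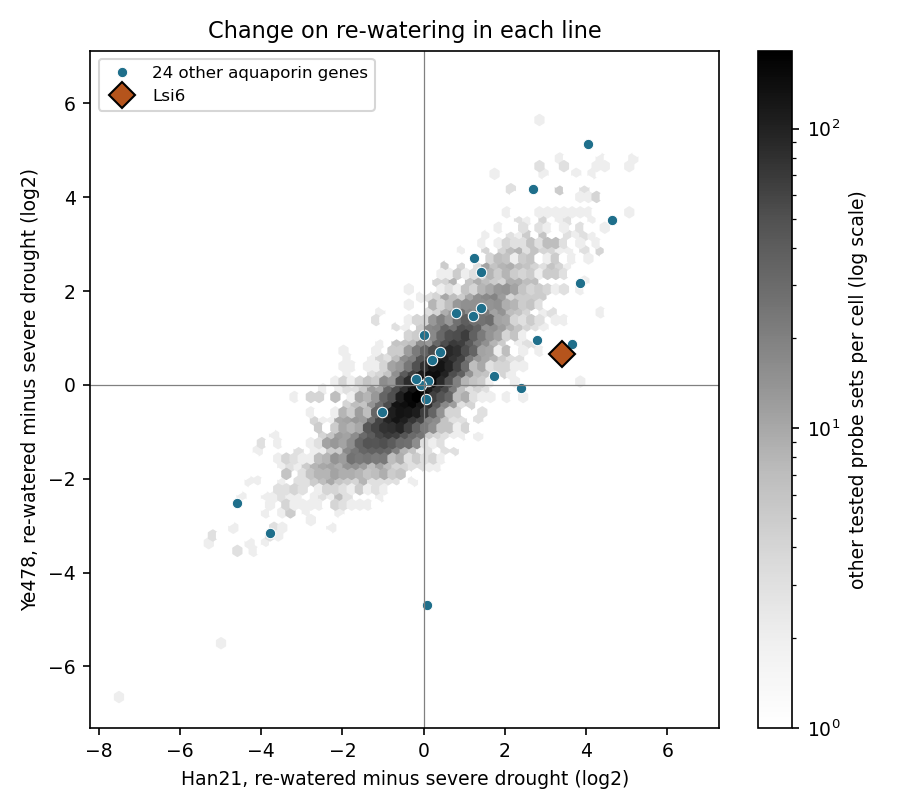
Log2 difference of re-watered minus severe drought in Han21 (horizontal axis) and in Ye478 (vertical axis) for the tested probe sets, with grey cells for their number on a log scale, blue points for 24 other aquaporin genes and a diamond for Lsi6. Lsi6 lies at 3.40 in Han21 and 0.67 in Ye478, where 98.46% and 75.91% of the tested probe sets had lower values.

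Set directly against each other, the lines differed in Lsi6 at every stage and without overlap. Han21 was 4.53-fold above Ye478 in the controls (log2 difference 2.21 ± 0.27), 1.55-fold above it in moderate drought (0.59 ± 0.27), 2.54-fold in severe drought (1.29 ± 0.27) and 16.8-fold after re-watering (4.03 ± 0.27). In the re-watered comparison 59 of 12111 probe sets including Lsi6 stood as high or higher. The line difference in the response, Han21 minus Ye478, was −1.62 ± 0.38 for moderate drought, −0.92 ± 0.38 for severe drought and 1.82 ± 0.38 for re-watering, each against the line's own control. The moderate and severe values are negative because Han21 was further below a higher control. All 3 share the control arrays. Each level rests on a single probe set, and whether the sequence under its probes differs between the lines was not tested.

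Markers of other tissue components moved with Lsi6 in some of these comparisons. The dividing tissue list covers DNA replication and cell cycle genes. All 5 of its tested genes fell in moderate and in severe drought in both lines. Background was 41.3% and 57.5% of probe sets called in Han21 and 48.6% and 63.6% in Ye478. The shares called lower were 22% and 28.7% in Han21 and 25% and 33.3% in Ye478. After re-watering against control, 3 of the 5 genes were called higher and 1 lower in Han21 (background 35%). In Ye478 none was called higher and 3 lower (background 28.3%). The line difference was called for 4 of the 5, higher in Han21 (background 13.7%, with 6.18% called higher). The summed signal of the xylem markers cesa10, cesa11, cesa12 and bk2, genes of the secondary cell wall, followed another course in Han21. It was 3326 to 4231 in Han21 controls, 3157 to 3712 in moderate drought, 337 to 683 in severe drought and 1732 to 2520 after re-watering. Hence it did not separate control from moderate drought in Han21, where Lsi6 was already low. In Ye478 it was 2705 to 2943 in controls, 465 to 554 in moderate drought, 117 to 178 in severe drought and 1105 to 1237 after re-watering. There it fell from control through moderate to severe drought without overlap, as Lsi6 did. For both, the re-watered arrays of Ye478 lay above severe drought and below control. The 3′ to 5′ log2 ratio of the actin control probes averaged 1.03 in severe drought Han21 and 1.13 in severe drought Ye478, against 1.87 and 2.03 in the controls of these lines. Some other control probes ran the opposite way. The ratio of a second actin set averaged −1.24 in severe drought and −3.17 in control in Han21, and 0.16 and −3.11 in Ye478. That of gapdh averaged 3.09 in severe drought and 2.01 in control in Han21, and 2.37 and −0.71 in Ye478, with replicate SDs of 1.21 to 2.42. The pairs thus gave no common direction for RNA quality. The part of these markers and of RNA quality in the Lsi6 values was not tested.

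The closest relatives on the array are the other NIP channels. A list of 13 silicon and boron transport names, which may hold several names of 1 gene, matched 3 genes besides Lsi6. These were Lsi1, NIP2-2 and NIP3-1, and NIP1-1 completes the NIP class. All were tested with limma and Benjamini-Hochberg adjustment over all 12111 probe sets at 0.05.

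Lsi1, known in rice as the root influx channel for silicic acid, also fell in severe drought. Its signal was 914, 636 and 581 in Han21 controls, 438, 357 and 328 in moderate drought, 189, 183 and 79.7 in severe drought and 1283, 1175 and 675 after re-watering. In Ye478 it was 624, 571 and 515 in controls, 427, 449 and 302 in moderate drought, 172, 277 and 159 in severe drought and 418, 337 and 413 after re-watering. In both lines the severe arrays lay below all control arrays, and only in Han21 did the re-watered arrays overlap the controls.

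Against control, Lsi1 differed in severe drought by −2.27 ± 0.29 in Han21 (limma adjusted p = 7.58e-07) and by −1.51 ± 0.29 in Ye478 (adjusted p = 9.99e-05). In moderate drought it fell by 0.90 in Han21 (limma adjusted p = 0.0154), a call lost in 4 of the alternatives that leave out arrays (adjusted p = 0.056 to 0.0973). Its difference of −0.55 in Ye478 did not pass (limma adjusted p = 0.121), whereas the other tested Lsi1 probe set gave −0.70 there and passed (limma adjusted p = 0.0448). After re-watering Lsi1 stood higher in Han21 than in Ye478 by 1.37 ± 0.29 (limma adjusted p = 0.000551; background 44% of probe sets called). The line difference in re-watering against control was 1.07 ± 0.41 and did not pass (limma adjusted p = 0.0825). For severe drought the other Lsi1 probe set gave −2.38 in Han21 and −1.76 in Ye478.

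NIP2-2, a NIP channel whose name stands next to the NIP2-3 synonym of Lsi6, followed a different course. Its signal was 816, 667 and 660 in Han21 controls, 638, 528 and 501 in moderate drought, 545, 255 and 253 in severe drought and 4461, 4538 and 3641 after re-watering. In Ye478 it was 1466, 1019 and 1091 in controls, 3082, 1887 and 2338 in moderate drought, 2560, 2117 and 1939 in severe drought and 4343, 3574 and 4141 after re-watering. Drought arrays thus lay below the controls in Han21 and above them in Ye478, and re-watered arrays were the highest of each line.

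In severe drought NIP2-2 fell by 1.11 in Han21 (limma adjusted p = 0.000316), while in Ye478 it rose by 0.89 ± 0.23 (limma adjusted p = 0.00191). This line difference in response, −2.0 ± 0.33, passed its own test (limma adjusted p = 2e-04; background 16.2% of probe sets called). After re-watering NIP2-2 exceeded control by 2.55 ± 0.23 in Han21 (limma adjusted p = 2.8e-08) and by 1.76 ± 0.23 in Ye478 (limma adjusted p = 4.21e-06). Its levels did not pass between the re-watered lines, with a difference of 0.07 (limma adjusted p = 0.844), in the group where the Lsi6 difference between the lines was 4.03.

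NIP1-1 fell in severe drought in both lines, with differences of −1.71 ± 0.16 in Han21 (limma adjusted p = 7.78e-09) and −1.77 ± 0.16 in Ye478 (limma adjusted p = 3.1e-09). Its range over all arrays of Han21 was 510 to 2390 signal units. It regained 71.2% of that fall in Han21 and 83.4% in Ye478. NIP3-1, whose class includes boron channels in other plants, rose in Ye478 by 0.91 in moderate drought (limma adjusted p = 0.000934, or 0.0527 without replicate 1) and by 1.09 in severe drought (limma adjusted p = 9.94e-05), against controls that all lay below the filter level. In Han21 it rose by 0.58 in severe drought (limma adjusted p = 0.0209), a call lost in 5 alternatives that leave out arrays (adjusted p = 0.0578 to 0.2).

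**Figure D3:**
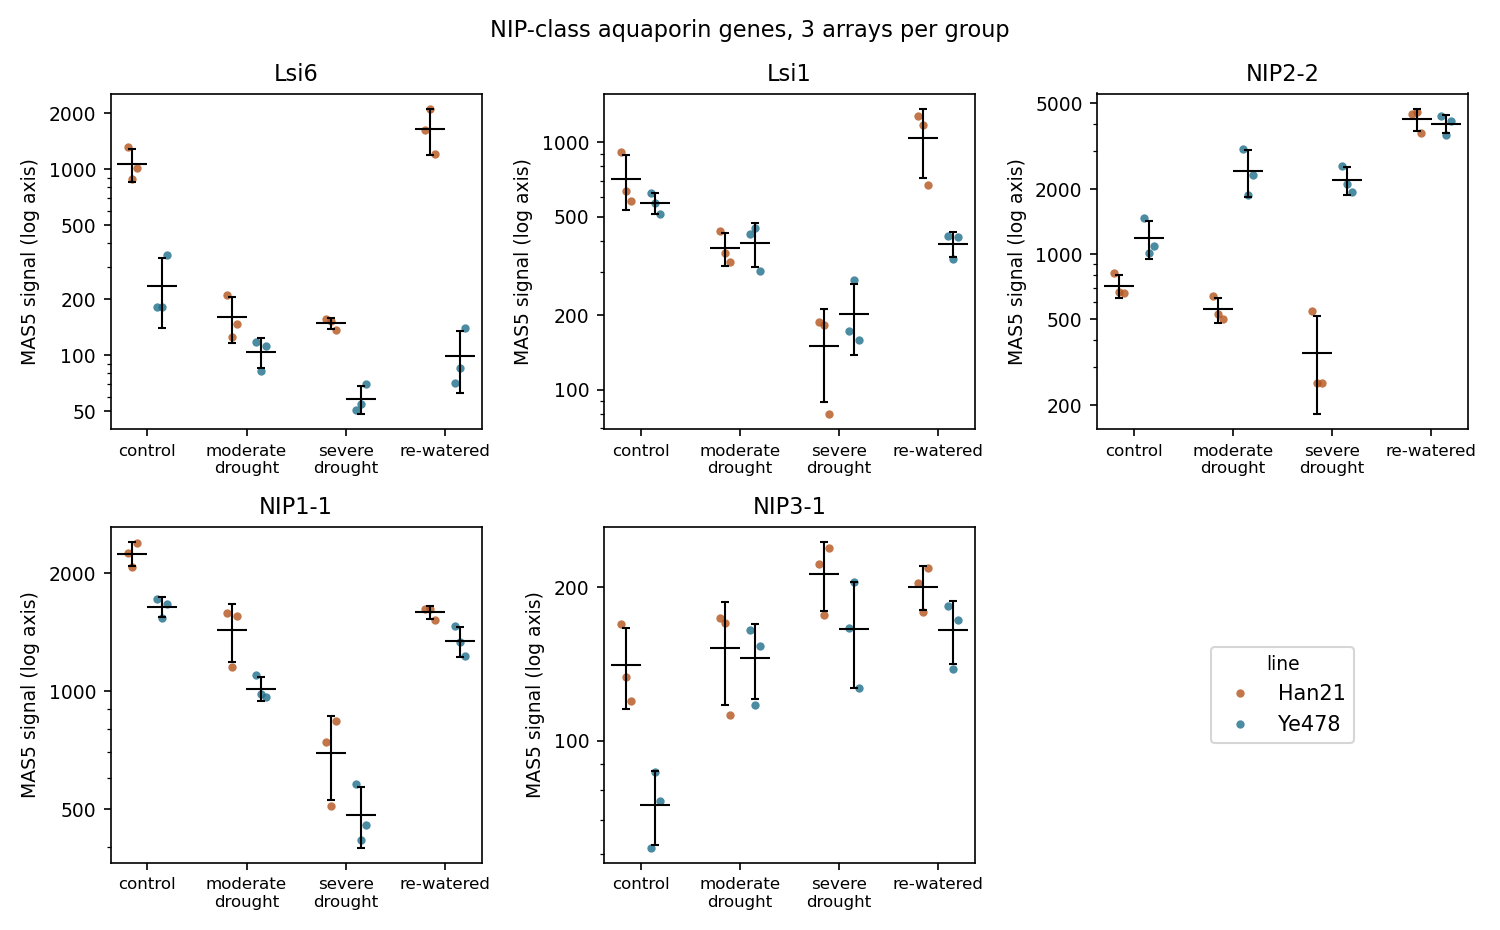
MAS5 signal (vertical log axis, a scale of its own in each panel) of Lsi6 and 4 other NIP channel genes by treatment, with 1 point per array, Han21 left of Ye478, and black bars for mean and SD (n = 3). Lsi6 and Lsi1 are high again in re-watered Han21, and NIP2-2 is high in both re-watered lines.

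Lsi6 was also set beside the whole aquaporin family. The array carried 28 aquaporin genes on 36 probe sets, and 25 of these genes, Lsi6 included, passed the filter, while TIP1-2, TIP2-3 and TIP5-1 did not. Of the other 24 tested genes, 9 had at least 1 group with every array below the filter level, and differences that involve such a group set a brighter level against a dim one. PIP2-6 and pip2-5 passed the filter on 6 arrays, all of them re-watered, and TIP3-2 on the 3 severe drought arrays of Ye478. These genes thus had to differ there. TIP2-2 passed on 6 arrays, all Han21 control or re-watered, and TIP4-4 on 5, all Ye478 control or re-watered. Their drought falls in those lines were set by the filter in the same way. Each count of called genes is set beside background, the share of all 12111 probe sets called in the same comparison.

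In Han21 moderate drought 2 of the other 24 genes were called higher and 12 lower (58.3%, background 41.3%). None had a difference below that of Lsi6, which was chosen in part on this same difference. Calls fell to 8, 6 and 9 without replicates 1, 2 and 3, and to 8 without replicate 3 of the moderate group. The median of the 24 was −0.45 on the log2 scale, against −0.01 over all tested probe sets. In Han21 severe drought 5 were higher and 11 lower (66.7%, background 57.5%), and again none lay below Lsi6. In Ye478 moderate drought 6 were higher and 7 lower (54.2%, background 48.6%), or 8 and 6 when arrays were centred on their median, and 5 lay below Lsi6. In Ye478 severe drought 8 were higher and 9 lower (70.8%, background 63.6%), and 3 lay below Lsi6.

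On re-watering against severe drought, 14 of the 24 were called higher and 3 lower in Han21 (70.8%, background 64.8%), and 14 higher and 5 lower in Ye478 (79.2%, background 65.6%). The difference of Lsi6 was exceeded by 4 of them in Han21 and by 13 in Ye478. Re-watered against control, 10 were higher and 4 lower in Han21 (58.3%, background 35%), a total of 14 that became 9 without replicate 2. In Ye478, 11 were higher and 1 lower (50%, background 28.3%). The exception was TIP4-1, a tonoplast channel named here after its values were seen, at −4.61 in Ye478 and −5.03 in Han21. It was the one gene of the 24 below Lsi6 in re-watered Ye478. The re-watering counts of both lines include PIP2-6 and pip2-5, which the filter kept through re-watered arrays alone. Lsi6 lay above all 24 in the difference between the re-watered lines and in the line difference in re-watering against control. For that last contrast none of the 24 was called higher in Han21 and 4 were called lower (16.7%, background 13.7%). The line difference in response was called for 1 gene as higher and 6 as lower in moderate drought (29.2%, background 8.14%), and for 3 as higher and 5 as lower in severe drought (33.3%, background 16.2%).

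Among plasma membrane channels after re-watering against control, 2 of 4 PIP1 genes were called higher in Han21 and 3 of 4 in Ye478. Of the PIP2 genes, 6 of 6 were called higher in Han21 and 5 of 6 in Ye478. Background was 35% in Han21, with 15.7% of all probe sets called higher, and 28.3% in Ye478, with 12% called higher. No PIP gene was called lower. The PIP2 counts include PIP2-6 and pip2-5, which passed the filter through re-watered arrays alone, so for these genes the result was set by the filter. Among the PIP genes r to Lsi6 over the 8 groups was at most 0.629 (PIP2-4). PIP1-5 exceeded control after re-watering by 3.33 ± 0.23 in Han21 and by 5.08 ± 0.23 in Ye478, where its control and moderate drought arrays all lay below the filter level. PIP2-4 fell in severe drought by 0.74 in Han21 (limma adjusted p = 0.000664) and by 2.25 in Ye478 (limma adjusted p = 1.63e-10), so that its fall was the larger one in Ye478, and the line difference in response was 1.51 ± 0.23 (limma adjusted p = 0.000118). PIP2-1 fell by 0.43 in Ye478 severe drought (limma adjusted p = 0.00211), a call lost under median centring and without replicate 1 (adjusted p = 0.0725 to 0.145). PIP1-1 rose by 0.53 in Han21 and 0.60 in Ye478 severe drought, and pip1-2 passed in neither line. The 2 tested probe sets of pip2c disagreed. The brighter one fell by 0.74 in Han21 severe drought (limma adjusted p = 0.00234, or 0.063 without replicate 2) and stood at 0.41 in Ye478, where it did not pass (limma adjusted p = 0.066). The dimmer one fell by 1.10 in Han21 (limma adjusted p = 2.61e-06) and by 2.4 in Ye478 (limma adjusted p = 1.83e-11). The line difference in response was −1.14 for the brighter set (limma adjusted p = 0.00533) and 1.29 for the dimmer (limma adjusted p = 0.000264), so its direction is not settled.

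Tonoplast channels split in 2 directions in severe drought. TIP3-1, a channel of the seed type, rose by 4.05 ± 0.54 in Han21 and 7.39 ± 0.54 in Ye478, and TIP3-2 rose by 5.20 ± 0.34 in Ye478 and stood at 0.19 ± 0.34 in Han21, where it did not pass. The controls of both genes lay below the filter level. TIP4-4 fell by 1.20 in Han21, where all its arrays lay below the filter level, a call lost without replicate 3 (limma adjusted p = 0.179). In Ye478 it fell by 2.90. The filter kept it only through control and re-watered arrays of Ye478, so that fall was set by the filter. TIP2-1 and TIP2-2, chosen after their values were seen, came nearest to Lsi6 among the aquaporins, TIP2-2 with only its Han21 control and re-watered arrays above the filter level. TIP2-1 had signals of 2068, 1003 and 771 in Han21 controls, 239, 188 and 160 in moderate drought, 293, 153 and 262 in severe drought and 3585, 3445 and 3049 after re-watering. In Ye478 it had 500, 460 and 338 in controls, 249, 136 and 122 in moderate drought, 154, 124 and 136 in severe drought and 723, 422 and 845 after re-watering. In both lines its severe drought arrays lay below all control arrays, given without a test because the gene was chosen on its values. TIP2-1 regained 165% of the fall in Han21 and 136% in Ye478. Among the SIP genes, SIP1-2 fell in severe drought by 1.01 in Han21 and fell by 1.57 in Ye478, SIP1-1 rose by 0.65 in Han21 and by 0.68 in Ye478, and SIP2-1 did not pass in severe drought.

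**Figure D4:**
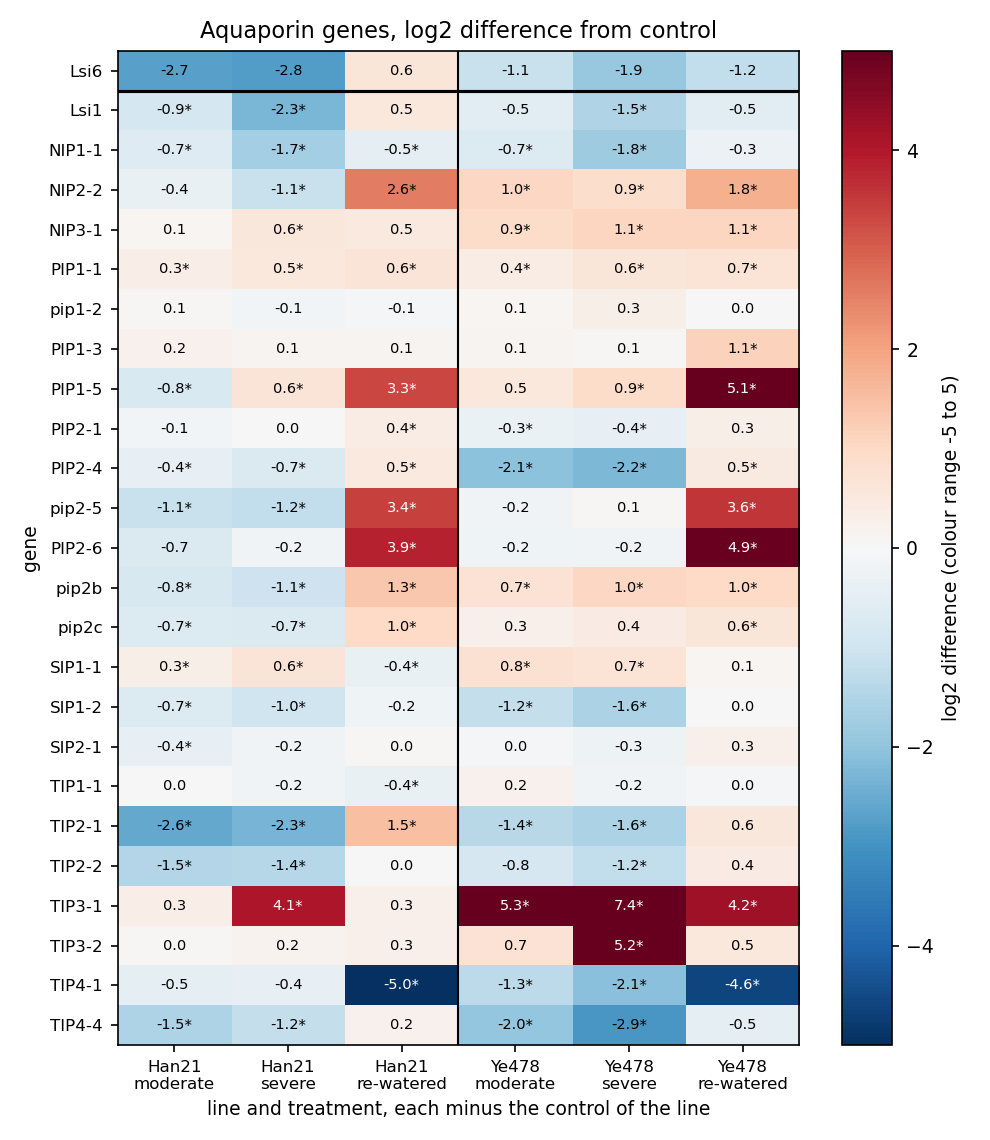
Log2 difference from the line's own control for Lsi6 (top row, not tested) and 24 other aquaporin genes (rows, by class), in moderate drought, severe drought and re-watering of Han21 and Ye478 (columns). A star marks a limma call at an adjusted p under 0.05, and colour runs from −5 to 5. Lsi6 is at −2.72, −2.80 and 0.60 in Han21 and at −1.10, −1.88 and −1.21 in Ye478.

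Likeness to Lsi6 was measured as Pearson's r of the log2 group means over the 8 groups, without a p, since the points share arrays and treatments. Of 12110 other tested probe sets, 114 (0.941%) had r of at least 0.9 and 85 had r of −0.9 or less, with a median of 0.05. Over the 24 single arrays, 25 reached 0.9. The nearest probe set, at r = 0.996, has no gene name in the annotation.

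Among 1054 named probe sets, the 8 genes most like Lsi6 were gdh1 (r = 0.976), IIG1 (0.957), gst13 (0.957), TUBC (0.947), aic1 (0.94), atGRF2 (0.901), RH2 (0.898) and TUBB2 (0.888). The gene gdh1 codes for glutamate dehydrogenase, an enzyme of nitrogen metabolism, and its mean signal was 531 in Han21 controls, 290 in moderate drought, 224 in severe drought and 535 after re-watering. In Ye478 its mean signal was 241, 189, 153 and 194 in the same order of stages. The glutathione S-transferase gene gst13 had in Han21 mean signals of 643 in controls, 31.0 in moderate drought, 16.6 in severe drought and 905 after re-watering. In Ye478 the means of gst13 were between 12.2 and 31.1 in all 4 groups, below the filter level. IIG1 averaged 153 in Han21 controls and 145 in re-watered Han21, both below the median signal of every array, 154.4 to 192.9. Its means of 3.91 to 11.1 in the other 6 groups lay far below the filter level. The means of atGRF2 were 81.9 in Han21 controls and 79.7 in re-watered Han21, both below the filter levels of those arrays. Elsewhere they were at most 48.7. The r of these genes thus includes differences among values below the filter level. TUBC and TUBB2 are tubulin genes and aic1, also listed as aux1, is an auxin import carrier.

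The 4 named genes least like Lsi6 were AO1 (r = −0.985), SE1A (−0.963), hsp18 (−0.925) and adh1 (−0.903). AO1 codes for an aldehyde oxidase, and its mean signal was 44.8 in Han21 controls, 86.4 in moderate drought, 113 in severe drought and 34.3 after re-watering. In Ye478 AO1 averaged 86.5 in controls, 105 in moderate drought, 144 in severe drought and 119 after re-watering. The AO1 means in the controls of both lines and in re-watered Han21 lay below the filter levels of those arrays. In Ye478 the small heat shock gene hsp18 averaged 118 in re-watered shoots and 24.2 in controls, a mean below the filter level, and the alcohol dehydrogenase gene adh1 averaged 2581 in re-watered shoots and 894 in controls. In the aquaporin family r ran from 0.884 for TIP2-2 and 0.883 for TIP2-1, through 0.784 for Lsi1, 0.707 for NIP1-1 and 0.0187 for NIP2-2, to −0.891 for SIP1-1.

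**Figure D5:**
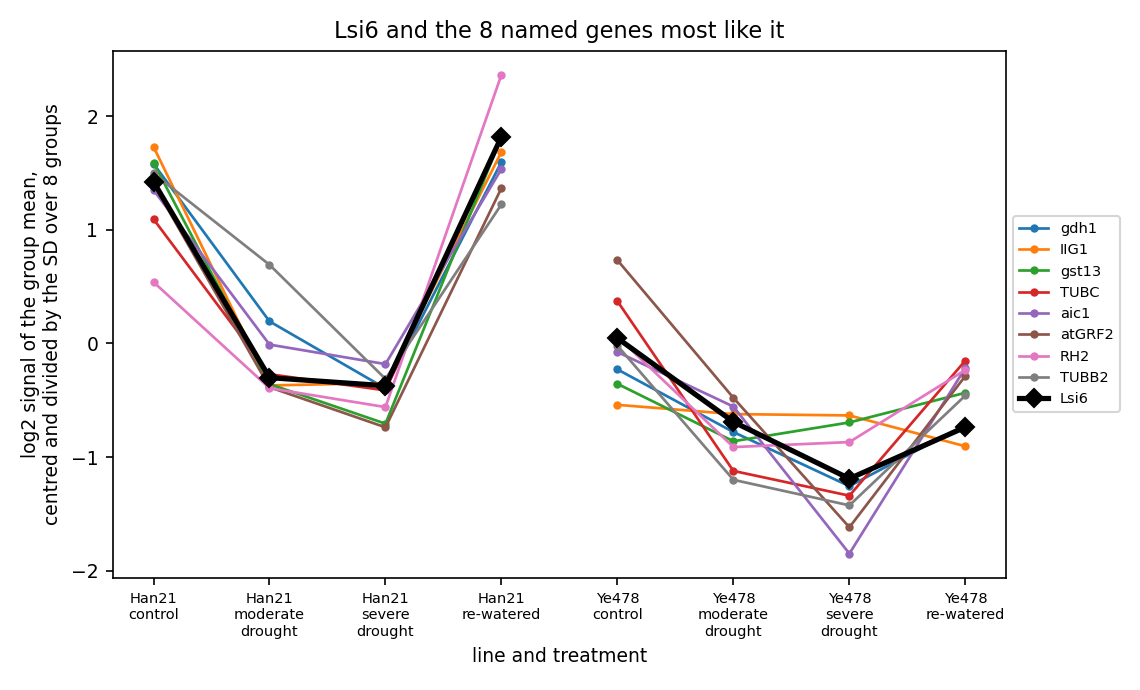
Log2 signal of group means, centred and divided by the SD over the 8 groups (vertical axis), for Lsi6 (black) and the 8 named genes most like it (r from 0.888 to 0.976), by line and treatment. All curves are high in Han21 controls and re-watered Han21, apart from RH2, which is only moderately high in the controls.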

How the data were processed

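The authors deposited MAS5 signal intensities, per the submitters' processing notes, which name GCOS and MAS5 without a version. Trimmed means of 500.14 to 500.18 show a common scaling, which keeps array-wide shifts out of view. Detection calls and scanner images were not used here, and no genome build is named in the sources used here.

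The 113 control probe sets were left out. Signals plus 4.56, the 10th percentile of all values, were put on the log2 scale, so a difference understates changes of dim genes. Probe sets above the array's 40th percentile on at least 3 arrays were tested, and 5510 of 17621 were removed. One mean per group was fitted with limma 3.58.1 in R 4.3.3 (lmFit, eBayes with trend, 16 residual and 5.01 prior degrees of freedom, Benjamini-Hochberg within each contrast, threshold 0.05). The number of arrays, 3 per group, limits the precision, and the labels do not say whether replicates were grown separately, so p-values cover only the spread between these samples. The procedure was tested on simulated data.

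Probe sets were named from the platform annotation, in which 1452 had 1 gene, 1 had several and 16168 had none. Of 1108 genes named, 1060 were found in a gene table, which served for naming alone (assembly Zm-B73-REFERENCE-NAM-5.0). A gene with several tested probe sets was represented by the one with the highest mean. Probe sets of near-identical copies, such as those of pip2c, may share signal.

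The genes named are Lsi6, the NIP class and the silicon and boron list, up to 3 genes per other class with the smallest adjusted p in severe drought, and the 8 most and 4 least like Lsi6. The members and lists were chosen with earlier results of these data known. Same-numbered replicates deviated together in all 14 pairs of compared groups (r of deviations 0.154 to 0.692), so the numbers may pair the samples, which the labels do not say. The main model did not use this pairing, so the p-values and calls given above ignore it. The replicate number entered the model as a block only as an alternative. Alternatives were normalization, constant, filter, replicate block, trend, groups fitted, probe set choice and leaving out arrays.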

Additional observations from a re-analysis of the deposited data

Results flagged for a closer look

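In re-watered shoots Lsi6 was above its line's control mean in all 3 Han21 arrays and below its line's control mean in all 3 Ye478 arrays. The line difference, Han21 minus Ye478, was 1.82 on the log2 scale, and it was not tested because the gene was chosen on its pattern.

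The other aquaporin results given here are those of the named genes that passed limma's test of the line difference in response, Han21 minus Ye478, on the log2 scale, out of 7, 8 and 4 genes called among 24 in moderate drought, severe drought and re-watering. For moderate drought against control these were NIP2-2 at −1.38, PIP1-5 at −1.29, PIP2-4 at 1.64, pip2c at −0.93, TIP3-1 at −5.0 and SIP1-1 at −0.49. For severe drought they were NIP2-2 at −2.0, PIP2-4 at 1.51, pip2c at −1.14, TIP3-2 at −5.01, TIP3-1 at −3.34 and TIP4-4 at 1.70. For re-watering they were PIP1-5 at −1.75, TIP3-1 at −3.96 and SIP1-1 at −0.49. The call of SIP1-1 was lost in 17 alternatives for moderate drought and in 12 for re-watering, that of pip2c for moderate drought in 10 and for severe drought in 1 (adjusted p = 0.157), and that of TIP4-4 for severe drought in 9. The moderate drought calls of NIP2-2 and PIP1-5 were each lost in 2 (adjusted p = 0.117 to 0.141 and 0.1 to 0.172), and those of TIP3-1 for severe drought and for re-watering in 1 each, without replicate 2 (adjusted p = 0.0544 and 0.0862). The other tested probe set of pip2c gave called differences of the opposite sign, 0.91 in moderate drought (limma adjusted p = 0.00934) and 1.29 in severe drought (limma adjusted p = 0.000264). All Han21 arrays of TIP4-4 and of TIP3-2 lay below the filter level. TIP3-2 passed the filter only through the severe drought arrays of Ye478, so its severe drought difference was set by the filter. TIP4-4 passed only through control and re-watered arrays of Ye478, so the Ye478 fall behind its difference was set by the filter. Groups of 3 arrays are too small for a check of single outlying samples.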

How the results depend on the processing

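Alternatives of filter, trend, replicate block and groups fitted cannot change a difference of Lsi6 group means, but they are counted here. Of the recomputed Lsi6 differences, 321 kept their direction and stayed within the replicate SD. The exceptions were the severe minus moderate step in Han21, which turned to 0.09 without replicate 1 and to 0.13 without replicate 1 of the moderate group (−0.26 to 0.13 over all arrays left out), and the re-watered line difference, 4.50 without replicate 3 (3.76 to 4.50 with arrays left out). The Han21 moderate difference ranged from −2.92 to −2.56 over the alternatives, and the Ye478 re-watered one against control from −1.48 to −0.91. With arrays left out, the aquaporin count ranged from 6 to 11 in Han21 moderate drought (main value 14) and from 9 to 14 in re-watered Han21 against control. The probe sets like Lsi6 numbered 114, or 92 to 131 with a replicate left out, and 25 with r over 24 arrays. With the replicate number as a block, the Lsi6 differences could not change, because the groups are balanced over replicate numbers (−2.72 for Han21 moderate drought). The called aquaporins then numbered 16 in moderate drought, 16 in severe drought, 17 on re-watering and 16 against control in Han21. In Ye478 they numbered 17, 20, 19 and 15, so no count of either line moved by over 1.5 times. Median centring changed the share of all calls that were higher from 46.7% to 57.6% in Han21 moderate drought, from 45% to 55.1% in re-watered Han21, from 48.6% to 60.3% and 47.6% to 59.5% in moderate and severe drought of Ye478, and from 42.5% to 60.9% in re-watered Ye478. It shifted the median of all probe sets by 0.102 in Han21 severe drought, and by 0.127, 0.2 and 0.141 in moderate drought, severe drought and re-watering against control in Ye478, and by 0.1 or less in the other comparisons. Of the results for single aquaporin genes, 3610 kept their outcome, which includes those not called in either setting. A call was lost in 178 and gained in 56, and none turned direction while called. The cause of these changes was not tested. Signals near the filter level limit the Ye478 values.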
